A study of Mus musculus with 6 samples.

Results

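The genes described here are 31 enzymes of serine, one-carbon and nucleotide synthesis, taken by gene symbol from a list drawn up with earlier results of these data known. All 31 had a row in the deposited table of 18288 genes, and all 31 passed the filter on low values. They were set in 4 steps, with 10 genes of serine and folate metabolism, 11 of purine synthesis, 4 of pyrimidine synthesis and 6 of deoxynucleotide supply. RNA was sequenced in 6 samples of CD8+ T cells from mice, activated in culture and taken on day 2. There were 3 libraries labelled Nae1T-KO and 3 labelled Nae1WT. The labels give no strain, age, sex, stimulus or allele, do not name the promoter that drives the deletion, and call the replicates biological without saying whether each is a separate mouse. P-values therefore measure the spread between these samples, which may in part be technical. The question was which of these transcripts differ between the genotypes. Nae1 encodes the regulatory subunit of the enzyme that activates NEDD8, a ubiquitin-like protein whose attachment switches on cullin-RING ubiquitin ligases.

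Activated T cells divide fast and need large amounts of nucleotides. Serine is made from a glycolytic intermediate or imported, and its side-chain carbon is passed to folate in mitochondria and cytosol. That carbon turns deoxyuridylate into thymidylate and, with glycine, aspartate and other donors, builds the purine ring. Pyrimidines are made from glutamine and aspartate, and ribonucleotide reductase then makes the deoxynucleotides that replication uses.

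Most of these 31 transcripts differed little between the genotypes, and no fold change reached 1.5. In Nae1T-KO, 3 of the 31 fell and 0 rose (limma, Benjamini-Hochberg adjusted p under 0.05), and 28 did not pass. At an unadjusted p under 0.05 there were 6 lower and 2 higher, where 29.1% of all genes tested passed. On the recovered reads DESeq2 called 5 lower and 0 higher (14.8% of all genes called, 7.32% as lower), and edgeR called 3 lower and 0 higher (13% called, 6.18% as lower). The 3 that fell were Phgdh, the entry enzyme of serine synthesis, Ppat, the entry enzyme of purine synthesis, and Tk1, which salvages thymidine. Over all 13819 genes tested, 12.7% were called, 6.53% as higher and 6.18% as lower, and the 9.68% of the 31 that were called is near that share. The log2 fold changes (Nae1T-KO over Nae1WT) ran from -0.36 for Tk1 to 0.19 for Impdh1, with a median of -0.05 against -0.01 over all genes tested. All 31 of the 95% intervals lay within 1.5-fold in either direction, as did 57.6% of the intervals of all genes tested. These shares were not matched for level, since the group means of the 31 were 664 to 11289 normalized counts and the filter admitted far lower genes. The groups did not overlap for 12 of the 31, 9 lower and 3 higher in Nae1T-KO. Of all tested genes 33.7% did not overlap, 17% lower and 16.7% higher. The count of 3 changed when single libraries were left out, and so did the share of all genes called. It was 0 without Nae1T-KO replicate 2, Nae1WT replicate 2 or Nae1WT replicate 3, where 7.48%, 6.11% and 6.9% of all genes were called. It was 2 without Nae1T-KO replicate 1 (Ppat and Tk1) or Nae1WT replicate 1 (Tk1 and Dhodh, which was not among the 3), where 9.37% and 9.74% were called.

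**Figure D1:**
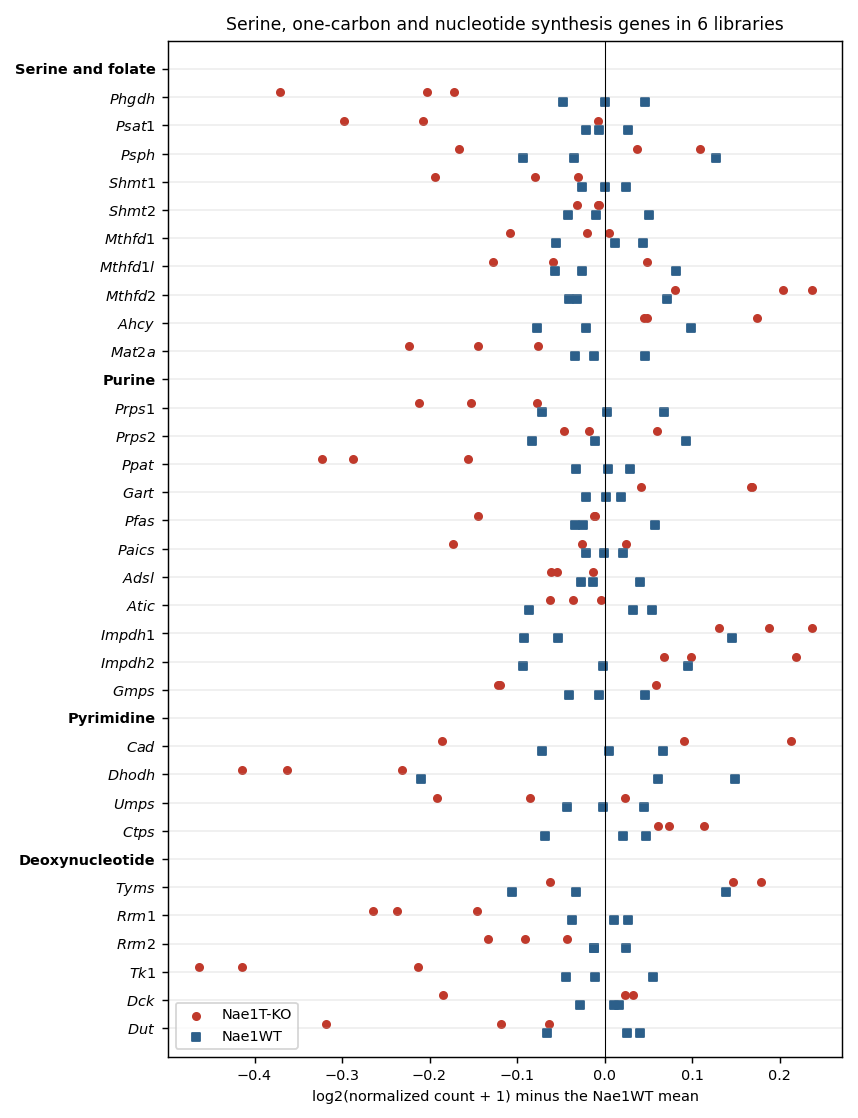
Each point is the value of 1 gene in 1 library, as log2(normalized count + 1) minus the mean of the 3 Nae1WT libraries, with circles for Nae1T-KO and squares for Nae1WT and the genes in rows by step. Phgdh, Ppat, Rrm1 and Tk1 have all 3 circles left of all 3 squares, while Shmt2, Prps2 and Atic have circles among the squares.

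The sequence just upstream of the start site is given for the 3 genes that fell and for Paics, the neighbour of Ppat. These are RefSeq promoter sequences of GRCm38.p6, from 250 bases before to 10 bases after the annotated start, 5′ to 3′ on the gene's own strand. Capitals mark matches, on either strand, to CACGTG (the E-box word that MYC can bind) or to one of 3 E2F-like words, namely TTCCCGC, its relative TTGGCGC and the further variant TTCGCGC. None of these words overlapped another in the printed stretches. The Phgdh stretch is chr3:98339960-98340219 on the minus strand, that of Ppat chr5:76951569-76951828 on the minus strand, that of Paics chr5:76951052-76951311 on the plus strand and that of Tk1 chr11:117826005-117826264 on the minus strand.
Phgdh: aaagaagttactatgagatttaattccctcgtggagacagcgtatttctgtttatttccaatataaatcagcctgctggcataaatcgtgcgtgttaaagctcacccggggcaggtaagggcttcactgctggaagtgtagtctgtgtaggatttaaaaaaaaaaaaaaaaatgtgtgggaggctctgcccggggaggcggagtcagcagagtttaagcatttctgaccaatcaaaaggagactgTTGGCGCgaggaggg
Ppat: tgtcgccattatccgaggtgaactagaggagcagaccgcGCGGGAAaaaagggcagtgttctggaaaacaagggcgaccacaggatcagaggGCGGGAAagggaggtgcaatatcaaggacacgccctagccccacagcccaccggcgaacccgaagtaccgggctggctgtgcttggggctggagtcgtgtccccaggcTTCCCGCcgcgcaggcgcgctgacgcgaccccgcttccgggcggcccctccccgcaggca
Paics: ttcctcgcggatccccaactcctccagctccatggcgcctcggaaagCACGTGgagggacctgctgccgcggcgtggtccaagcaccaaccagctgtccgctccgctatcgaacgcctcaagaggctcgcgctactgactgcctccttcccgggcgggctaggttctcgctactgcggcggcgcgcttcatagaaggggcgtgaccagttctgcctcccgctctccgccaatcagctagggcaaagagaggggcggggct
Tk1: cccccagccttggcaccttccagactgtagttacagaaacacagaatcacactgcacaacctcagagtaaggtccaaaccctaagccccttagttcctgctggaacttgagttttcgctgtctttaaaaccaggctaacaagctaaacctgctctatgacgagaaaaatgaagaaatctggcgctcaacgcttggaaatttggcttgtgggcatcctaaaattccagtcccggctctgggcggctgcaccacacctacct

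Phgdh held 1 E2F-like word, Ppat 3, Paics 1 E-box, and the searched letters were not found in the Tk1 stretch. The start used for Tk1 lies inside the RefSeq span of the gene, which ends at 117826087, so part of its stretch is within the gene. The Ppat stretch lies within the RefSeq span of Paics, and the Paics stretch within that of Ppat. Over the whole 300-base windows, which run to 50 bases past the start, an E2F-like word stood in 12 of the 32 windows of these genes (37.5%) and in 8.07% of all 32851 windows. An E-box stood in 4 of the 32 (12.5%) and in 7.15% of all windows. The word TGATGNAAT, a short form of the composite site for ATF4, stood in 0 of the 32 and in 0.965% of all windows. The 32 windows belong to 29 of the 31 genes, without Pfas and Dhodh. These shares were not tested, and the windows were not matched for base composition or for the level of their genes. A match describes the letters and not a bound site.

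The libraries held 15628252 to 25444653 reads assigned to genes. Nae1 checked the labels, with 390.3, 338 and 367 normalized counts in Nae1T-KO and 1601, 1806 and 1882 in Nae1WT (log2 fold change -2.27, adjusted p = 5.03e-07). Over all genes 903 rose and 854 fell, against 1176 and 622 with scaling to total counts. Xist, which coats the inactive X chromosome, marked 3 libraries as female (Nae1T-KO replicates 1 and 2, with 14225 and 16521 normalized counts, and Nae1WT replicate 3, with 20518), while the remaining 3 had at most 4.04. The groups thus held unequal numbers of female and male libraries. CD8 T cell markers (7 of 8 in the table) summed to 26492 to 29016 normalized counts in Nae1T-KO and 25753 to 29364 in Nae1WT, with Cd5 called higher and Cd3g lower among the 7. Markers of other cells had smaller sums. Those of CD4 T cells (4 of 4 in the table) summed to 126 to 273 in Nae1T-KO and 109.8 to 212 in Nae1WT, those of B cells (8 of 8) to 202 to 552 in Nae1T-KO and 228 to 359 in Nae1WT, and those of NK and gamma-delta T cells (3 of 6) to 14.1 to 27.3 in Nae1T-KO and 17.8 to 26.6 in Nae1WT. Blnk, Cr2 and Klra4 were at 0 in at least 1 library. Myeloid and dendritic markers (8 of 12) summed to 133 to 247 in Nae1T-KO and 67.9 to 108 in Nae1WT, without overlap, and 1 of the 4 tested, Xcr1, was called higher, with Itgam, Cd14 and Itgax at 0 in at least 1 library. Erythroid markers (6 of 6) summed to 194 to 2042 in Nae1T-KO and 142 to 629 in Nae1WT, highest in Nae1T-KO replicate 2, where they exceeded the 628 of Dhodh, a synthesis gene of low level. The part of these cells in the results below was not tested, and in bulk RNA fewer cells of a type and less RNA per cell cannot be told apart.

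Serine and folate genes had 1 of 10 lower and 0 higher in Nae1T-KO (10% called, against 12.7% of all genes). Phgdh, 3-phosphoglycerate dehydrogenase, lies on chromosome 3 from 98313171 to 98339969 (GRCm38). It had 8677, 7560 and 8490 normalized counts in Nae1T-KO and 9457, 9782 and 10097 in Nae1WT. Every Nae1T-KO library was below every Nae1WT library, and Nae1T-KO replicate 2 was lowest. The means were 8242 ± 598 in Nae1T-KO and 9779 ± 320.0 in Nae1WT (SD, n = 3 each), which gives a log2 fold change of -0.25 (standard error 0.07, 95% interval -0.41 to -0.09, limma, adjusted p = 0.0492). The call lay just inside the threshold. It ended without any of 5 libraries, with adjusted p = 0.0614 without Nae1T-KO replicate 1, 0.139 without Nae1T-KO replicate 2, and 0.0743, 0.141 and 0.170 without Nae1WT replicates 1, 2 and 3 (limma). It also ended with total-count scaling (0.0686), in edgeR (0.0525) and with sex as a covariate (0.0729), and was kept in 7 of 17 alternatives with adjusted p from 0.0188 to 0.391. Between libraries of the same sex the log2 difference was -0.42 to -0.16, lower in 4 of 4 pairs, which share libraries.

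The next enzymes of serine synthesis did not pass. Psat1, the aminotransferase, had 8390, 7305 and 6860 normalized counts in Nae1T-KO and 8400, 8314 and 8597 in Nae1WT, with Nae1T-KO replicate 1 inside the Nae1WT range (log2 fold change -0.17, adjusted p = 0.185). Psph, the phosphatase that completes the path, had a log2 fold change of -0.01, and its 95% interval ran from -0.20 to 0.19. Shmt2, the mitochondrial hydroxymethyltransferase that passes serine's carbon to folate, had 7357, 7231 and 7355 normalized counts in Nae1T-KO and 7657, 7184 and 7342 in Nae1WT. All 3 Nae1T-KO values lay within the Nae1WT range, and the log2 fold change was -0.02 and the interval -0.15 to 0.12 (adjusted p = 0.902). Shmt1, its cytosolic counterpart, had -0.10 (adjusted p = 0.346).

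Mthfd2, the mitochondrial dehydrogenase and cyclohydrolase that activated lymphocytes express strongly, stood higher without passing. It had 5212, 4677 and 5093 normalized counts in Nae1T-KO and 4649, 4327 and 4301 in Nae1WT. The groups did not overlap, by a narrow margin between Nae1T-KO replicate 2 and Nae1WT replicate 1, and the log2 fold change was 0.17 and the interval 0.02 to 0.33 (adjusted p = 0.125). Mthfd1l and Mthfd1, which make formate in mitochondria and take it into the cytosolic folate pool, had -0.05 and -0.04. In the methionine cycle Mat2a, which makes S-adenosylmethionine, had -0.15 (adjusted p = 0.172) with groups that did not overlap, and Ahcy, which clears S-adenosylhomocysteine, had 0.09 (adjusted p = 0.448).

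Purine genes had 1 of 11 lower and 0 higher in Nae1T-KO (9.09% called, against 12.7% of all genes). Ppat, the amidotransferase that commits phosphoribosyl pyrophosphate to the purine ring, lies on chromosome 5 from 76913249 to 76951578. It had 5226, 4655 and 4769 normalized counts in Nae1T-KO and 5694, 5941 and 5836 in Nae1WT. Every Nae1T-KO library was below every Nae1WT library. The means were 4883 ± 302 in Nae1T-KO and 5824 ± 124 in Nae1WT (SD, n = 3 each), which gives a log2 fold change of -0.26 (standard error 0.07, 95% interval -0.40 to -0.11, limma, adjusted p = 0.0329). The call ended without Nae1T-KO replicate 2 (limma, adjusted p = 0.0988), without Nae1WT replicate 1 (0.0612), replicate 2 (0.124) or replicate 3 (0.110), and with total-count scaling (0.0569). It was kept in 10 of 17 alternatives, with adjusted p from 0.0105 to 0.310, and the difference was -0.33 to -0.16 between libraries of the same sex.

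Paics, a bifunctional enzyme of the middle of the purine path, is on the plus strand and Ppat on the minus strand. The RefSeq spans of this pair overlap by 277 bases at their start ends, so reads of the shared stretch may be split between them. Paics did not pass. It had 9774, 8519 and 9435 normalized counts in Nae1T-KO and 9467, 9751 and 9604 in Nae1WT, overlapping groups with a log2 fold change of -0.06 and the interval -0.21 to 0.10 (limma, adjusted p = 0.632). The ratio of Ppat to Paics within a library, which does not depend on the scaling between libraries, was 0.535, 0.546 and 0.506 in Nae1T-KO, against 0.601, 0.609 and 0.608 in Nae1WT. The groups of ratios did not overlap, and a two-sided exact permutation test of the log ratio gave p = 0.1, the smallest that 3 against 3 allows (0.2 after adjustment over 8 ratios). The 8 ratios were chosen after the values were seen, which the adjustment does not correct, so this p-value is a description.

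The other steps from Ppat to inosinate were close in both groups. Gart, which carries out several early ring-building steps, had 0.13 (adjusted p = 0.231) with Nae1T-KO libraries at 8182 to 8934 normalized counts and Nae1WT libraries at 7830 to 8054. Pfas, Adsl and Atic, the remaining ring-building enzymes, had log2 fold changes of -0.06, -0.04 and -0.03. Impdh2, the main inosinate dehydrogenase of dividing cells and the entry to guanine nucleotides, had 6271, 5772 and 5650 normalized counts in Nae1T-KO and 5382, 5052 and 5759 in Nae1WT. Nae1WT replicate 3 lay among the Nae1T-KO libraries, and the log2 fold change was 0.13 and the interval -0.03 to 0.29 (adjusted p = 0.276). Its paralog Impdh1 had 0.19 (adjusted p = 0.146), the highest value of the 31, and Gmps, which makes guanylate, had -0.06. Prps1 and Prps2, X-linked synthases of phosphoribosyl pyrophosphate, had -0.15 (adjusted p = 0.181) and -0.00141 (adjusted p = 0.993). The sign of Prps2 turned in 8 of 17 alternatives.

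Pyrimidine genes had 0 of 4 called by limma, against 12.7% of all genes. At an unadjusted p under 0.05 there was 1 (Dhodh), where 29.1% of all genes passed. Cad, the trifunctional enzyme that starts the path, had 7859, 8557 and 6487 normalized counts in Nae1T-KO and 7408, 7023 and 7728 in Nae1WT. The Nae1T-KO libraries lay on both sides of the Nae1WT libraries, and the log2 fold change was 0.04 and the interval -0.18 to 0.25 (adjusted p = 0.834). It was -0.05 without Nae1T-KO replicate 2. Dhodh, the mitochondrial dehydrogenase of the path and the least abundant of the 31 per length, stood just outside the threshold. It had 714, 628 and 651 normalized counts in Nae1T-KO and 724, 929 and 874 in Nae1WT, groups that did not overlap by the narrow gap between Nae1T-KO replicate 1 and Nae1WT replicate 1. The log2 fold change was -0.34 and the interval -0.57 to -0.11 (limma, adjusted p = 0.0584). It passed in DESeq2 (adjusted p = 0.0299) and edgeR (0.0473) on the recovered reads and without Nae1WT replicate 1 (limma, 0.0213), and ranged from 0.0213 to 0.202 over the alternatives. Umps, which makes uridylate, had -0.08 (adjusted p = 0.477), and Ctps, which makes CTP, had 0.08 (adjusted p = 0.427).

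Deoxynucleotide genes had 1 of 6 lower and 0 higher in Nae1T-KO (16.7% called, against 12.7% of all genes). Tk1, cytosolic thymidine kinase, lies on chromosome 11 from 117815519 to 117826087, where its span overlaps that of Afmid. It had 1713, 1441 and 1491 normalized counts in Nae1T-KO and 1928, 1972 and 2065 in Nae1WT. The groups did not overlap, with Nae1T-KO replicate 1 nearest to Nae1WT. The means were 1549 ± 145 in Nae1T-KO and 1988 ± 70.0 in Nae1WT (SD, n = 3 each), which gives a log2 fold change of -0.36 (standard error 0.08, 95% interval -0.54 to -0.19, limma, adjusted p = 0.0154). The call ended without Nae1T-KO replicate 2 (limma, adjusted p = 0.0529), Nae1WT replicate 2 (0.0521) or Nae1WT replicate 3 (0.0690), was kept in 13 of 17 alternatives, and had adjusted p from 0.00196 to 0.181 over them. Between libraries of the same sex the difference was -0.52 to -0.27, lower in 4 of 4 pairs.

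The subunits of ribonucleotide reductase were both lower in every Nae1T-KO library, without passing. Rrm1, the large subunit, had 10200.0, 9574 and 9394 normalized counts in Nae1T-KO and 11371, 11497 and 10998 in Nae1WT, so the log2 fold change was -0.22 and the interval -0.36 to -0.07 (limma, adjusted p = 0.0547). It passed in DESeq2 (adjusted p = 0.0204) and when only genes with at least 50 normalized counts were tested (limma, 0.0488), with 0.0204 to 0.423 over the alternatives. Rrm2, the small subunit made in S phase, had 5554, 5218 and 5373 normalized counts in Nae1T-KO and 5674, 5822 and 5676 in Nae1WT. Its groups did not overlap either, and the log2 fold change was -0.09 and the interval -0.22 to 0.05 (adjusted p = 0.369). Tyms, thymidylate synthase, had 2618, 2266 and 2678 normalized counts in Nae1T-KO and 2198, 2604 and 2311 in Nae1WT, overlapping groups with a log2 fold change of 0.09 and an interval of -0.11 to 0.28 (adjusted p = 0.551). Dut, which removes dUTP, had -0.17 (adjusted p = 0.187), and Dck, the deoxycytidine kinase, -0.04 (adjusted p = 0.761).

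**Figure D2:**
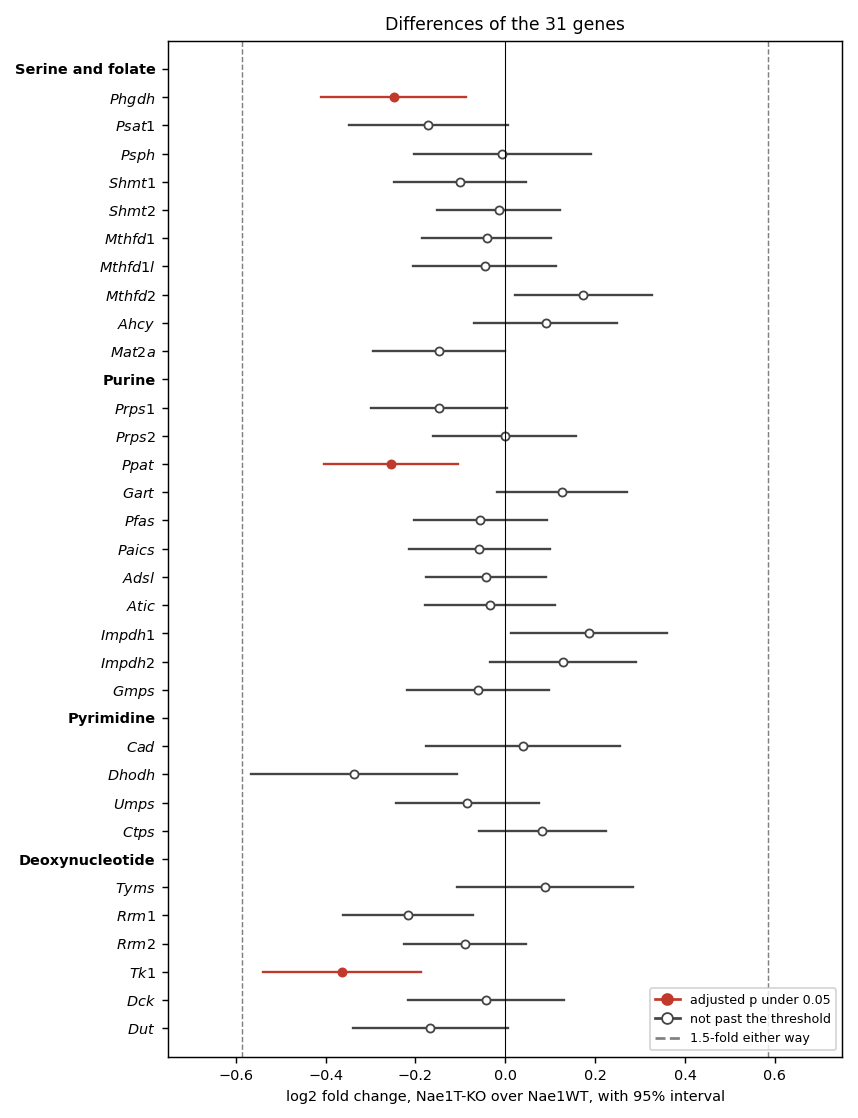
Points are log2 fold changes of Nae1T-KO over Nae1WT for the 31 genes, bars are 95% intervals from limma, and dashed lines mark 1.5-fold in either direction. Filled points mark the 3 genes past the threshold (Phgdh, Ppat and Tk1), and every bar lies between the dashed lines, that of Dhodh closest to one at -0.57.

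Other ratios within a library gave the balance between partners. Rrm1 to Rrm2 was 1.84, 1.83 and 1.75 in Nae1T-KO, against 2.00, 1.97 and 1.94 in Nae1WT, and Tk1 to Rrm2 was 0.309, 0.276 and 0.278 in Nae1T-KO, against 0.340, 0.339 and 0.364 in Nae1WT. Neither set overlapped between groups, so Rrm1 and Tk1 were low relative to Rrm2 in each Nae1T-KO library. Mthfd2 to Mthfd1 was 1.28, 1.16 and 1.35 in Nae1T-KO, against 1.13, 1.10 and 1.02 in Nae1WT, again without overlap. Each of these 3 gave p = 0.1 in the two-sided exact permutation test, the smallest possible with n = 3 each, and 0.2 after adjustment over the 8 ratios. As the ratios were chosen after the values were seen, which the adjustment does not correct, these p-values are a description. The ratios of Shmt2 to Shmt1, Impdh2 to Impdh1, Prps1 to Prps2 and Phgdh to Psat1 overlapped between the groups, with exact permutation p from 0.2 to 0.4.

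**Figure D3:**
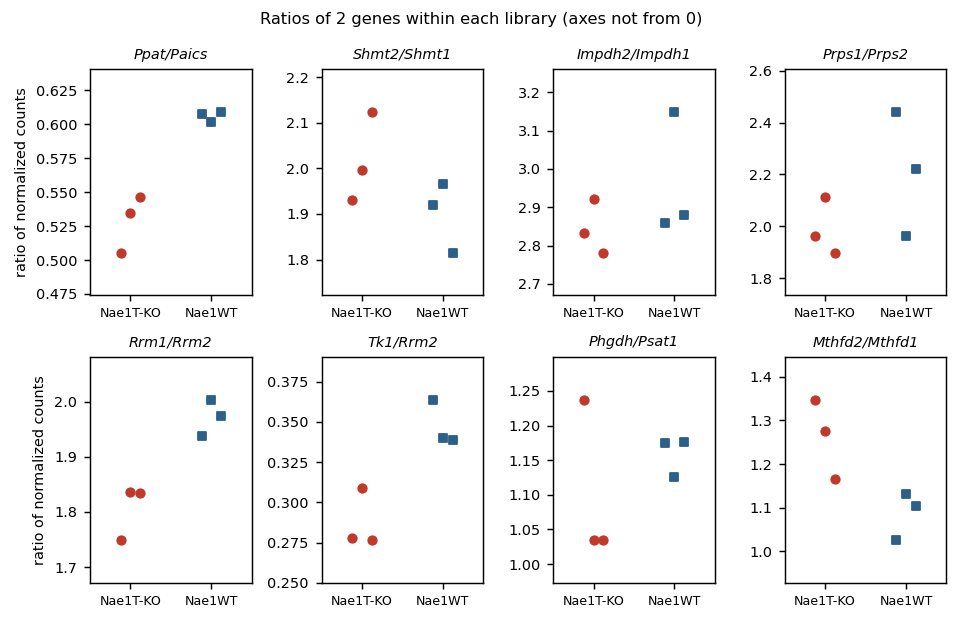
Each panel shows the ratio of the normalized counts of 2 genes within each library, with circles for the 3 Nae1T-KO libraries and squares for the 3 Nae1WT libraries, on axes that do not start at 0. Ppat/Paics, Rrm1/Rrm2, Tk1/Rrm2 and Mthfd2/Mthfd1 separate the groups, and the other 4 ratios overlap.

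The order of the genes by level was nearly the same in both genotypes. Per kilobase of the longest principal transcript in GENCODE M21, Phgdh was highest, with 4354 normalized counts per kilobase in Nae1T-KO and 5166 in Nae1WT. Paics came next (3724 in Nae1T-KO and 3871 in Nae1WT), followed by Shmt2 (3195 in Nae1T-KO and 3230.4 in Nae1WT). Dhodh was lowest in both, with 326 in Nae1T-KO and 413 in Nae1WT. Tk1 moved most in rank among the 31, to 22 in Nae1T-KO against 17 in Nae1WT. On this scale Impdh2 stood at 3174 in Nae1T-KO and 2905 in Nae1WT, above Impdh1 at 797 in Nae1T-KO and 702 in Nae1WT. Prps1 stood at 1738 in Nae1T-KO and 1925 in Nae1WT, above Prps2 at 464 in Nae1T-KO and 465 in Nae1WT, and Shmt1 (1271 in Nae1T-KO and 1361 in Nae1WT) stood below Shmt2. The transcript that the cells used is not known from gene counts, so these levels are approximate.

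**Figure D4:**
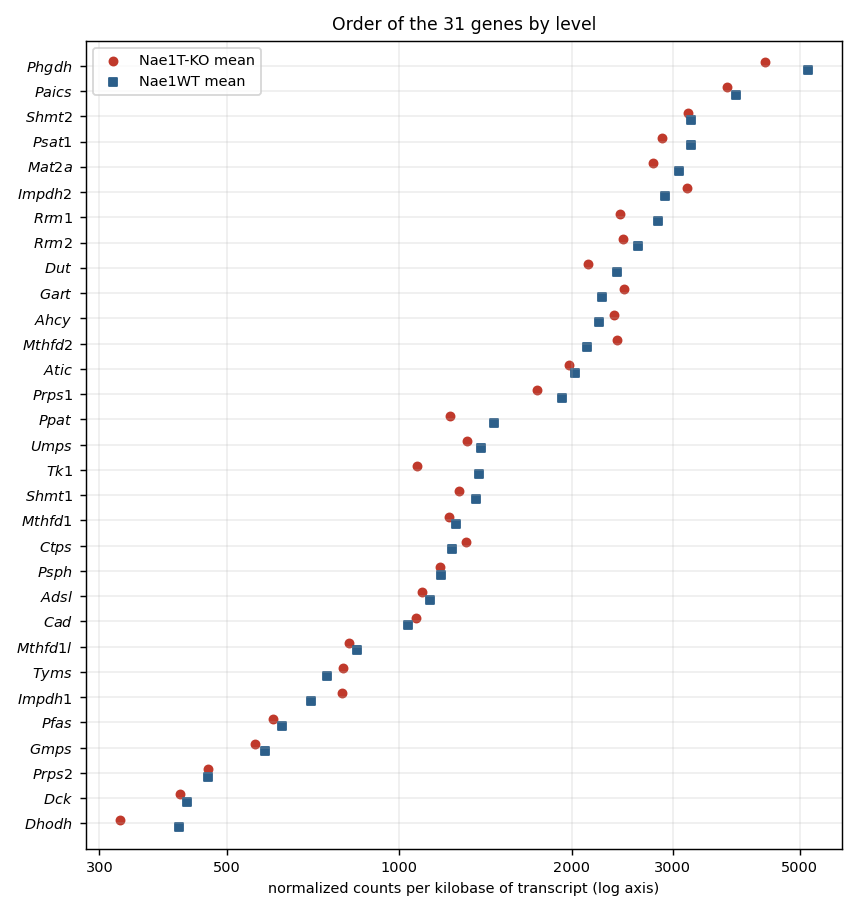
The 31 genes are ordered by their mean level in Nae1WT, and each point is the mean of 3 libraries in normalized counts per kilobase of transcript on a log axis, with circles for Nae1T-KO and squares for Nae1WT. The levels run from 326 for Dhodh in Nae1T-KO to 5166 for Phgdh in Nae1WT, and the circles stay near the squares of the same gene.

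Some larger fold changes stood among other genes of the same pathways, those of folate handling, salvage and breakdown. Of 77 such genes tested, from a list of 90 symbols chosen with earlier results known, 7 rose and 5 fell and 65 did not pass (limma), beside 12.7% of all genes called. Gmpr and Upp1, among the 7, passed the filter on low values only through Nae1T-KO, and without them 5 of 75 rose and 5 fell. Of the 77, 54 had a 95% interval within 1.5-fold, and their group means ran from 2.94 to 12533 normalized counts, against 664 to 11289 for the 31. In folate, methionine and glycine metabolism 1 of 26 rose and 3 fell (15.4% called). Cth, which makes cysteine from cystathionine, had 309, 288 and 343 normalized counts in Nae1T-KO and 598, 778 and 636 in Nae1WT. Its log2 fold change of -1.09 (limma, adjusted p = 0.000555) was called in 17 of 17 alternatives. The groups did not overlap.

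The other calls of this step were less stable. Dld, the dihydrolipoamide dehydrogenase shared by glycine cleavage and the ketoacid dehydrogenases, had -0.36 (limma, adjusted p = 0.0262) and lost its call without Nae1T-KO replicate 2 (0.0810), Nae1WT replicate 2 (0.108) or Nae1WT replicate 3 (0.0867). Mtrr, which reactivates methionine synthase, had -0.34 (limma, adjusted p = 0.0230) and lost it without Nae1T-KO replicate 2 (0.0624), Nae1WT replicate 1 (0.0745) or Nae1WT replicate 2 (0.0764). Gldc, the glycine decarboxylase, rose at a very low level, with 35.8, 25.6 and 31.3 normalized counts in Nae1T-KO and 11.1, 14.6 and 17.5 in Nae1WT (log2 fold change 1.06, limma, adjusted p = 0.0464). Its call ended without each of the 6 libraries in turn, with adjusted p from 0.0653 to 0.126, and was kept in 4 of 16 alternatives.

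In purine salvage, breakdown and related genes 5 of 22 rose and 1 fell (27.3% called, against 12.7% of all genes), or 4 of 21 rose without Gmpr (23.8% called). Xdh, xanthine dehydrogenase, which makes urate, had 869, 882 and 727 normalized counts in Nae1T-KO and 368, 481 and 566 in Nae1WT (log2 fold change 0.82, limma, adjusted p = 0.00735), and kept its call in 16 of 17 alternatives. Gmpr, which turns guanylate back to inosinate, had 61.5, 40.5 and 54.5 normalized counts in Nae1T-KO and 8.59, 14.6 and 8.37 in Nae1WT (log2 fold change 2.23), with 155 reads in Nae1T-KO and 32 in Nae1WT. The values of Nae1WT replicates 1 and 3 were under the filter of 10, so it entered the test through Nae1T-KO, and its values are given as a description. Ampd2, an AMP deaminase, had 0.33 (limma, adjusted p = 0.0111), Nt5c2, a nucleotidase for inosinate and guanylate, 0.35 (adjusted p = 0.0227) and Prpsap1, a subunit associated with phosphoribosyl pyrophosphate synthase, 0.30 (adjusted p = 0.0251). Ampd2 lost its call without Nae1WT replicate 2 (limma, adjusted p = 0.0549), Nt5c2 without Nae1T-KO replicate 1 (0.0654), Nae1WT replicate 2 (0.0922) or Nae1WT replicate 3 (0.0832), and Prpsap1 without any library but Nae1T-KO replicate 3 (0.0626 to 0.0935). Nudt5, an ADP-ribose hydrolase named after its values were seen, had -0.24 (limma, adjusted p = 0.0300) and also lost its call without any library but Nae1T-KO replicate 3 (0.0673 to 0.111), with total-count scaling (0.0686) and with sex as a covariate (0.0542).

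In pyrimidine salvage 1 of 16 rose and 1 fell (limma, 12.5% called, against 12.7% of all genes), or 0 of 15 rose without Upp1 (6.67% called). In this list edgeR also called Upp1 higher, but on the same filtered genes, so that call is no separate support. DESeq2 gave Upp1 no adjusted p and called 0 higher. Cmpk1, the kinase that makes UDP and CDP from their monophosphates, had 1494, 1394 and 1385 normalized counts in Nae1T-KO and 2105, 2383 and 2343 in Nae1WT. The groups were far apart, with a log2 fold change of -0.67 and an interval of -0.84 to -0.51 (limma, adjusted p = 0.000585), called in 17 of 17 alternatives. Upp1, uridine phosphorylase, was near the limit of detection, with 14, 18 and 15 reads in Nae1T-KO, against 3, 2 and 4 in Nae1WT. It entered the test only through Nae1T-KO, and the ratio of scaled reads was 5.335 with a 95% exact interval of 2.585 to 12.4 for counting error only, given as a description. In deoxynucleotide salvage and breakdown limma called 0 of 13, with 2 lower and 2 higher at an unadjusted p under 0.05 (29.1% of all genes). There edgeR called 0 and DESeq2 called 1 lower, Dtymk, the kinase that follows Tk1 and Tyms, named after its values were seen (limma log2 fold change -0.27, adjusted p = 0.0558).

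**Figure D5:**
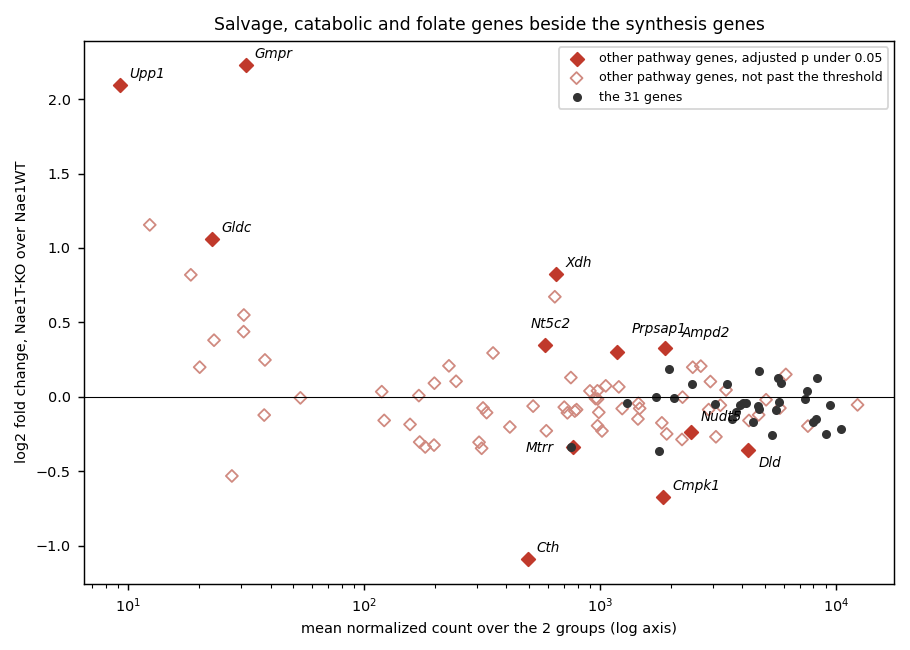
The log2 fold change of Nae1T-KO over Nae1WT is plotted against the mean normalized count on a log axis, with filled diamonds for other pathway genes past the threshold, open diamonds for those that did not pass and dots for the 31 synthesis genes. The dots lie between -0.36 and 0.19, while Cth at -1.09, Cmpk1 at -0.67, Xdh at 0.82, Gldc at 1.06, Upp1 at 2.09 and Gmpr at 2.23 lie outside that range, the last pair having passed the filter only through Nae1T-KO. Further diamonds lie outside it too, such as Nt5c2 at 0.35 and, without passing, Ak1 at 1.16, Ak4 at 0.67 and Aldh1l2 at -0.53.

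Of 8 transcription factors and kinases known to drive these genes in other settings, limma called 0, with 4 higher at an unadjusted p under 0.05 (14.4% of all genes were higher so), and edgeR and DESeq2 also called 0. Atf4, a stress-response factor that activates serine synthesis genes, had 6630.0, 5415 and 6035 normalized counts in Nae1T-KO and 6715, 6716 and 6616 in Nae1WT. Nae1T-KO replicate 1 lay within the Nae1WT range, and the log2 fold change was -0.15 (limma, adjusted p = 0.225). Myc, which activates nucleotide synthesis genes in T cells, had 7189, 7023 and 7548 in Nae1T-KO, against 6490.4, 6313 and 6744 in Nae1WT (log2 fold change 0.15, adjusted p = 0.141). Of 8 genes of replication and proliferation limma called 3 lower and 0 higher (37.5% called, against 12.7% of all genes), and 5 did not pass. The 3 were Pcna, Mcm2 and Mcm5, named after their values were seen, with log2 fold changes of -0.34 (limma, adjusted p = 0.0424), -0.36 (0.00552) and -0.39 (0.00710). DESeq2 called 4 lower, Mcm6 being the addition. The groups did not overlap for 7 of the 8, each lower in Nae1T-KO (17% of all genes were lower so). Mki67 overlapped between the groups, with a log2 fold change of 0.04 (limma, adjusted p = 0.806). Without single libraries the call of Pcna ended, at adjusted p of 0.0898 without Nae1T-KO replicate 1, 0.122 without Nae1T-KO replicate 2 and 0.147 without Nae1WT replicate 2 or 3, and also with sex as a covariate (0.0725). The relation of Tk1 and Rrm1 to this replication list was not tested.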

How the data were processed

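RNA sequencing was done on 6 libraries of activated mouse CD8+ T cells, from messenger RNA captured on poly-T beads per the labels' protocols. Per the submitters' processing notes bcl2fastq, HISAT2 and DESeq2 1.42.0 were used with build mm10. The counter, its annotation, strand use and handling of shared reads are not named in the labels, so reads of overlapping genes (13 of the 31 overlap a measured gene by RefSeq span) and of near-identical copies may be shared. The values the authors deposited are a signal, normalized counts per gene and library, all at or above 0. Every column was whole multiples of 1 step within 0.001 of a read for 100% of values, and the steps matched DESeq2 size factors. For Nae1T-KO replicate 3 the step of 1.01 is so close to 1 that recovery of its reads is less certain from the values alone.

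Genes with at least 10 normalized counts in at least 3 libraries (13819) entered a two-sided limma test (3.58.1, R 4.3.3) of log2(normalized count + 1), in which the variance prior followed the mean and was robust to outlying genes, and p-values were adjusted by Benjamini-Hochberg over all of them. Fold changes on this scale understate changes of low genes. edgeR 4.0.16 and DESeq2 1.42.0 on the recovered reads were alternatives. The members and lists were chosen with earlier results of these data known, so no list was tested. By rule, all 31 genes were accounted for, 8 entry or marker enzymes were given by library whatever their test, and of the other pathway genes at most 5 called per step were named, and Nudt5, a sixth in purine salvage, and Dtymk were added after their values were seen. The planned comparison of paralog protein sequences was not run. Sex was read from Xist. Sequences and positions are RefSeq's (GRCm38.p6). Some genes are not reported here.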

Additional observations from a re-analysis of the deposited data

How the results depend on the processing

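Of 527 values of the 31 genes under the 17 alternatives, 474 kept their direction and side of the threshold, 21 lost a call, 5 gained one and 27 changed sign, none of them from a called gene. Leaving out 1 library at a time gave 0 to 3 of the 31 genes lower, 0 higher, and 844 to 1790 called over all genes. The count of lower genes was 1 with total-count scaling and 5 in DESeq2. The correlations of same-numbered libraries' deviations were -0.130, -0.177 and -0.266, and no library correlated best with its own number. By Xist each of these pairs joined a female and a male library, so the correlations cannot show whether the title numbers pair the samples. With the replicate block by title number 1 of the 31 was lower and 968 of all genes were called, and with the replicate block by library name number on 4 libraries 0 were lower and 253 were called. The cause of these shifts was not tested, beyond the smaller number of libraries in some fits. Signs turned only at small values. With total-count scaling they were Adsl 0.00399, Atic 0.0132, Dck 0.00405, Mthfd1 0.00622, Mthfd1l 0.00112, Prps2 0.0459, Psph 0.0405 and Shmt2 0.0320. With the block by library name number they were Atic 0.00715, Cad -0.0452, Mthfd1l 0.00133, Prps2 0.0147, Psph 0.0265 and Shmt2 0.0184. With sex as a covariate they were Cad -0.0337, Prps2 0.00782 and Psph 0.0308. Prps2 was 2.2e-05 with TMM scaling and 0.00113 in edgeR. Leaving out 1 library at a time gave -0.0478 to 0.152 for Cad, -0.0646 to 0.0729 for Psph, -0.0811 to 0.0277 for Dck, -0.0426 to 0.0453 for Prps2 and -0.0358 to 0.0102 for Shmt2. At this depth the standard errors of the 31 log2 fold changes were 0.06 to 0.10.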
